A study of Mus musculus with 12 samples.

Results

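The data ask which genes of liver immune cells moved in a single direction under each of 3 treatments: polyIC, an antibody to PD-L1, or both. The 9 treated libraries were set against the 3 control libraries, so all 12 libraries of the series were used. RNA had been sequenced from CD45+ cells, taken from the liver of C57BL/6 mice with a PE-labelled CD45 antibody and magnetic PE beads. CD45 marks nearly all leukocytes. Every mouse, controls included, had received human c-Myc and N-ras by hydrodynamic transfection on day 0, a rapid vein injection that drives DNA mainly into hepatocytes.

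The polyIC group (n = 3) received polyIC at 4 mg/kg into the peritoneum on days 14, 16, 18, 20 and 22, and 200 µg of IgG on days 17, 19 and 21. The antiPDL1 group (n = 3) received PBS on the polyIC days and 200 µg of PD-L1 antibody on the IgG days. The combination group (n = 3) received polyIC and the PD-L1 antibody on those schedules. The control group (n = 3) received PBS and IgG. Livers were taken on day 24 by the protocol, while a label of each sample gives day 22. The labels do not say that the 3 replicates, numbered 0, 1 and 2, came from separate mice, so the p-values measure the spread between these samples, which may be technical.

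PolyIC imitates viral double-stranded RNA and is read by TLR3 and the cytosolic sensor MDA5, which switch on type I interferon. PD-L1 on myeloid or tumour cells engages PD-1 on T cells and dampens their killing and proliferation, and an antibody to PD-L1 releases that brake. The liver holds CD8 T cells, NK cells, resident macrophages called Kupffer cells, B cells and dendritic cells, beside hepatocytes, bile duct cells and sinusoidal endothelium that lack CD45.

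CD45 itself (Ptprc) stood at 268 to 487 FPKM in treated libraries and 206 to 261 FPKM in controls, a log2 difference of 0.66 ± 0.14 (SE, adjusted p = 0.0143 in limma) that was not shared by all 3 groups. FPKM is a read level scaled by transcript length and library size, so that levels of different genes can be compared. Hepatocyte RNA was present as well: Alb, the albumin gene, had 77.4 to 1000.3 FPKM in treated libraries and 495 to 1601 FPKM in controls. The bile duct markers Krt19, Krt7 and Sox9 were at or below 0.595 FPKM in every library, while Epcam, also a bile duct marker, had 2.07 to 8.17 FPKM in treated libraries and 2.96 to 4.57 in controls. Summed FPKM per library ran from 476111 to 677535, and relative depth, estimated from low values, from 0.469 to 1, with means of 0.546, 0.592 and 0.794 in the polyIC, antiPDL1 and combination groups, against 0.763 in controls. Correlation across the genes tested, which are not independent replicates, placed 3 libraries closer to a group other than the one on their label. The library antiPDL1 replicate 2 had a mean correlation of 0.952 with controls and 0.928 with the rest of its group. The library antiPDL1 replicate 0 had 0.961 with the combination and 0.942 with its own group. Control replicate 2 had 0.935 with polyIC and 0.922 with the other controls.

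A gene was called where the mean of the 3 treated groups differed from control at an adjusted p under 0.05 in limma, a linear model with moderated tests, on log2(FPKM + 1). It was counted as shared where, in addition, each treated group lay on the same side of control at an unadjusted p under 0.05. Of 11978 genes tested, 1008 were higher (8.42%) and 1230 lower (10.3%) with treatment, against 2058 and 2333 at an unadjusted p under 0.05. The shared response held 482 rises (4.02% of genes tested) and 530 falls (4.42%). With quantile scaling of the libraries the split turned to 662 rises and 445 falls. In 251 of the rises and 308 of the falls no treated library overlapped a control library. Over all genes tested 383 lay wholly above (3.2%) and 416 wholly below (3.47%). Under the stricter demand of an adjusted p under 0.05 in each of the 3 comparisons, 30 genes remained (0.25%), of which 29 were falls and 1 was a rise. Since the 3 comparisons share the same 3 control libraries, they are not independent of each other. The filter on low values also favours such genes: 84 shared falls reached 1 FPKM in fewer than 3 treated libraries, and 35 shared rises were under 1 FPKM in every control.

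Taken singly, polyIC gave 295 rises (2.46%) and 140 falls (1.17%), and the combination 1572 rises (13.1%) and 1952 falls (16.3%). The antiPDL1 group gave 1 rise (0.00835%) and 31 falls (0.259%). So few calls with the antibody alone bound the strict count. In all shared rises but 1, the antibody alone met only the unadjusted threshold.

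Killing genes of T cells were among the largest shared rises. Gzmk, a granzyme protease of killer lymphocytes, had 270, 188 and 183 FPKM with polyIC, 329, 32.3 and 40.6 with antiPDL1 and 487, 628 and 465 with the combination, against 3.89, 16.9 and 9.89 in controls. Every treated library lay above every control, and the combination libraries were the highest. The mean log2 difference was 4.37 ± 0.59 (SE, adjusted p = 0.00319 in limma). Gzmb, which activates caspases in target cells, averaged 656 ± 130 FPKM with polyIC, 318 ± 214 with antiPDL1 and 1162 ± 378 with the combination, against 63.8 ± 28.8 in controls (SD, n = 3 each). Its lowest treated library, antiPDL1 replicate 2 at 102 FPKM, was only just above the highest control at 95.8 FPKM.

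Of 24 cytotoxic effector genes 21 were tested, and 10 were shared rises with no shared fall. Their median log2 difference was 1.39, against 0.012 over all genes tested. Gzma, a granzyme abundant in NK cells, was highest with polyIC, at 2404 ± 671 FPKM, and averaged 449 ± 188 with antiPDL1 and 1098 ± 171 with the combination, against 196 ± 122 in controls (SD, n = 3 each). One of its treated libraries, antiPDL1 replicate 2 at 243 FPKM, lay under the highest control at 331 FPKM. Ccl5, a chemokine stored and released by effector T cells, averaged 7493 ± 1340, 2804 ± 2550 and 10025 ± 1508 FPKM with polyIC, antiPDL1 and the combination, against 898 ± 398 in controls. Without control replicate 0 the count of shared rises in this list was 3, and without antiPDL1 replicate 0 it was 5.

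Ifng, the gene of interferon gamma, had 35.2, 34.8 and 21.6 FPKM with polyIC, 37.8, 37.2 and 19.1 with antiPDL1 and 82.6, 151 and 135 with the combination, against 8.52, 13.6 and 16.8 in controls. No treated library overlapped a control. Both single treatments sat close together, at log2 differences of 1.19 and 1.2, and the combination at 3.15. That gap between treated groups passed a test that compares only the treated groups (limma F test, adjusted p = 0.0446). Control libraries still enter its estimate of the spread. The call was lost without any 1 polyIC or combination library or without control replicate 1 (limma F test, adjusted p of 0.0123 to 0.167 with 1 library left out).

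Inhibitory receptor genes of T cells rose together with the killing genes. Pdcd1, which encodes PD-1, had 197, 76.3 and 93.0 FPKM with polyIC, 153, 13.2 and 15.6 with antiPDL1 and 204, 267 and 188 with the combination, against 2.77, 8.12 and 5.17 in controls. All 9 treated libraries were above the controls, but antiPDL1 replicates 1 and 2 stood far below antiPDL1 replicate 0. Ctla4, a receptor that competes with CD28 for its ligands, averaged 30.4 ± 12.3, 21.1 ± 20.7 and 97.0 ± 36.7 FPKM with polyIC, antiPDL1 and the combination, against 2.87 ± 1.31 in controls. Tigit, another inhibitory receptor of T and NK cells, differed by 3.26 ± 0.50 on the log2 scale (SE, adjusted p = 0.00516 in limma). Of 20 checkpoint and exhaustion genes tested, 8 were shared rises and none a shared fall, at a median log2 difference of 1.36. The count was 3 without antiPDL1 replicate 0, 2 without control replicate 0, 4 without control replicate 1 and 12 without antiPDL1 replicate 1.

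**Figure D1:**
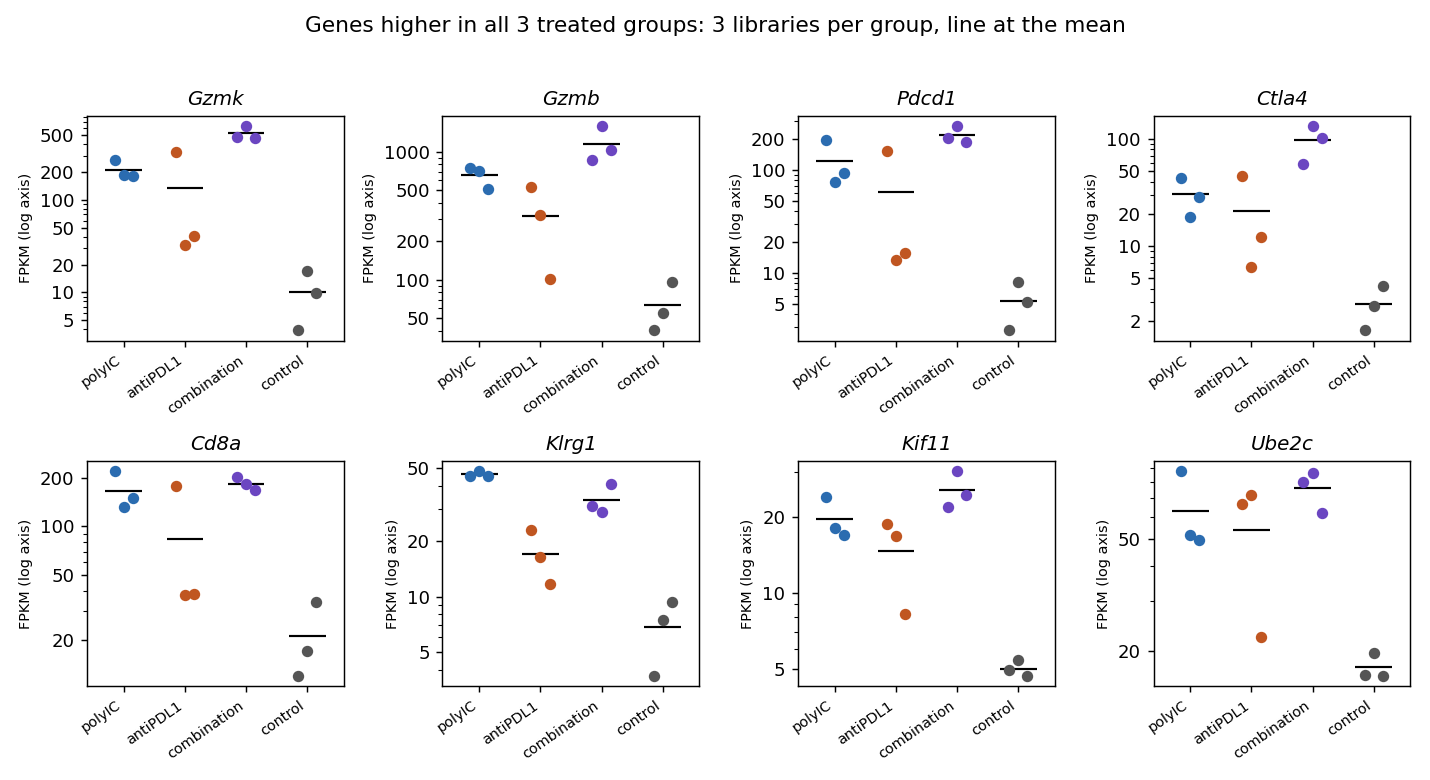
FPKM (log axis) of 8 shared rises in each of the 12 libraries, with points for the 3 libraries of a group and a line at their mean. Treated points lie above all control points in each panel, and antiPDL1 replicate 0 lies well above the other two antiPDL1 libraries for Gzmk, Pdcd1, Ctla4 and Cd8a.

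Markers of T cells followed in part. Cd8a, the CD8 coreceptor chain, averaged 166 ± 45.8, 84.3 ± 80.1 and 184 ± 16.5 FPKM with polyIC, antiPDL1 and the combination, against 21.2 ± 11.6 in controls, a log2 difference of 2.62 ± 0.43 (SE, adjusted p = 0.00632 in limma). Its lowest treated value, 37.8 FPKM, was close to the highest control at 34.3 FPKM. Cd8b1, the other CD8 chain, was also a shared rise but overlapped the controls. It had 241, 76.5 and 72.6 FPKM with antiPDL1, against 27.8, 42.3 and 101 in controls, and was shared in 7 of the 12 fits with 1 library left out. Cd4 did not pass for the mean of treatments (log2 difference 0.39, adjusted p = 0.222 in limma). It averaged 39.0 ± 1.80 and 40.9 ± 4.86 FPKM with polyIC and antiPDL1, and 99.6 ± 23.4 with the combination, against 43.4 ± 17.9 in controls. With the combination taken singly Cd4 was called higher (log2 difference 1.24, adjusted p = 0.00769 in limma). Of 28 T cell genes tested 19 were called higher for the mean of treatments and 1 lower. Shared rises were 11 of the 28, with no shared fall. They included Themis, a signalling protein of developing and mature T cells, at 1.92 ± 0.31 (SE). The number was 3 without antiPDL1 replicate 0 or without control replicate 1, 2 without control replicate 0, 20 without control replicate 2 and 7 without polyIC replicate 1. In bulk RNA, fewer cells of a type and less RNA per cell cannot be told apart, and the same holds for more.

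Genes of activated and regulatory T cells were among the rises. Tnfrsf4, the costimulatory receptor OX40, averaged 19.2 ± 5.44, 22.4 ± 17.1 and 76.9 ± 14.8 FPKM with polyIC, antiPDL1 and the combination, against 4.82 ± 1.61 in controls. Tnfrsf9, the costimulatory receptor known as 4-1BB, averaged 59.3 ± 15.5, 32.6 ± 25.9 and 83.4 ± 16.8 FPKM, against 10.8 ± 4.68 in controls. Foxp3, the factor that defines regulatory T cells, had 9.54, 6.51 and 7.57 FPKM with polyIC, 4.77, 2.24 and 3.32 with antiPDL1 and 14.4, 5.34 and 8.5 with the combination, against 0.958, 1.55 and 2.55 in controls. A single treated library, antiPDL1 replicate 1, fell inside the control range. Ccr8, a chemokine receptor of tissue regulatory T cells, had a log2 difference of 1.92 ± 0.39 (SE, adjusted p = 0.0117 in limma). In the regulatory T cell list 5 of 10 genes tested were shared rises and none a shared fall. Left-out libraries mattered here: 1 was shared without control replicate 0 or antiPDL1 replicate 0, 2 without polyIC replicate 0, polyIC replicate 2 or control replicate 1, and 3 without polyIC replicate 1 or combination replicate 2. Foxp3 was shared in 4 of the 12 fits with 1 library left out and Ccr8 in 7, and neither was called without control replicate 0.

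Klrg1, an inhibitory receptor of terminal effector T and NK cells, kept its call under every alternative tried. Its levels were 45.4, 47.9 and 45.0 FPKM with polyIC, 22.9, 16.5 and 11.7 with antiPDL1 and 31.1, 28.7 and 41.0 with the combination, against 3.72, 7.42 and 9.36 in controls. No treated library overlapped a control, and polyIC rather than the combination was highest. With the combination group left out, Klrg1 was 1 of 2 rises still shared by the single treatments (log2 difference 1.94, adjusted p = 0.0438 in limma), the other being Cd200r4, a receptor of the CD200R family, at 1.21, which is named here after its value was seen. NK cell genes as a list gave no shared rise or fall among 20 tested, and 1 shared rise without antiPDL1 replicate 0 or control replicate 2. Their median log2 differences were 1.73 with polyIC, 0.049 with antiPDL1 and 0.31 with the combination.

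Il21, a cytokine of helper T cells, was a shared rise of unequal size. It averaged 2.04 ± 0.796 FPKM with polyIC, 1.89 ± 0.866 with antiPDL1 and 18.0 ± 7.32 with the combination, against 0.372 ± 0.263 in controls (SD, n = 3 each). Its adjusted p against control was 0.0756, 0.199 and 0.000414 in limma for those 3 groups, so only the combination passed after adjustment. Sh2d1a, the adaptor SAP of T and NK cell signalling, had a log2 difference of 2.18 ± 0.37. Sdcbp2, which encodes syntenin-2, had 2.52 ± 0.34, and Spon1, an extracellular matrix protein gene, 2.34 ± 0.40 (SE for each).

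Cell cycle genes gave the most even rises. Of 38 tested 29 were shared rises and none a shared fall, with median log2 differences of 1.09, 1.04 and 1.60 with polyIC, antiPDL1 and the combination. Kif11, a motor protein of the mitotic spindle, had 23.9, 18.0 and 17.0 FPKM with polyIC, 18.7, 16.7 and 8.24 with antiPDL1 and 21.8, 30.2 and 24.4 with the combination, against 4.94, 5.40 and 4.70 in controls. The controls lay within 1 FPKM of each other and below every treated library. Ube2c, which marks mitotic proteins for destruction, averaged 62.8 ± 21.2, 53.7 ± 27.3 and 76.2 ± 12.7 FPKM, against 17.4 ± 1.86 in controls. Ncapg, a subunit of the condensin complex that compacts chromosomes, was the only rise in the strict set, at log2 differences of 1.54, 1.36 and 2.04 with adjusted p of 0.0114, 0.0493 and 0.000942 in limma for polyIC, antiPDL1 and the combination. Leaving out single libraries, shared rises in the list numbered 11 without control replicate 0, 18 without antiPDL1 replicate 0, and 19 without antiPDL1 replicate 1 or without control replicate 1.

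Promoter sequences of these genes are shown because many carry a common element. The cell cycle genes homology region (CHR), whose letters are TTTGAA, is bound by the DREAM complex, which silences mitotic genes in resting cells. RefSeq windows from 250 bases before to 50 after the gene start (GRCm38.p6, a later build than the mm9 of the deposited table) were found for 9120 of the 11978 genes. Both strands were searched. The CHR letters were in 54.2% of windows of cell cycle genes that were shared rises (13 of 24 windows) and in 48.5% of all windows of the cell cycle list (16 of 33), in 27.5% of windows of all shared rises, 10.7% of windows of shared falls, 12.4% of windows of genes tested and 17.9% of all RefSeq windows. A match is a description of the letters and not a measured site. In the stretches below, the 100 bases before the gene start of Kif11 (chr19:37376282-37376381, plus strand), Ncapg (chr5:45669825-45669924, plus strand) and Ube2c (chr2:164769829-164769928, plus strand), capitals mark the CHR on either strand.
Kif11: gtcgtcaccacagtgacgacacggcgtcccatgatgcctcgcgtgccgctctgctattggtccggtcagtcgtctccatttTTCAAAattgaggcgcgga
Ncapg: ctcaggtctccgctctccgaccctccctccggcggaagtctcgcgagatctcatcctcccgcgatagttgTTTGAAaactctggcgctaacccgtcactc
Ube2c: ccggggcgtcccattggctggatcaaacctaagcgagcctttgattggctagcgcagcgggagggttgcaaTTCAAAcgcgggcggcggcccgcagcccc

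Genes of recruited monocytes rose in part. Of 17 tested 5 were shared rises, none a shared fall, at a median of 0.89. Chil3, a chitinase-like protein of inflammatory monocytes, averaged 160 ± 53.3, 98.4 ± 66.6 and 140 ± 3.65 FPKM with polyIC, antiPDL1 and the combination, against 21.7 ± 13.8 in controls (SD, n = 3 each). The library antiPDL1 replicate 2, at 26.0 FPKM, was inside the control range of 9.90 to 36.8. S100a4, a calcium-binding protein of motile cells that T cells also carry, averaged 1028 ± 156, 1502 ± 911 and 3283 ± 962 FPKM, against 402 ± 180 in controls. F13a1, the gene of coagulation factor XIII chain A, had a log2 difference of 1.54 ± 0.32 (SE). Without control replicate 0 no monocyte gene was shared and none of these 3 calls held, without control replicate 1 the number was 3, and without antiPDL1 replicate 2 it was 9.

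None of 33 type I interferon-stimulated genes tested was a shared rise or fall (2 were shared rises without antiPDL1 replicate 2, and 1 a shared fall without antiPDL1 replicate 1). Their median differences were -0.034 with polyIC, 0.48 with antiPDL1 and 0.049 with the combination. Isg15, an interferon-induced ubiquitin-like protein gene, had 110, 96.2 and 75.3 FPKM with polyIC, 330, 382 and 44.4 with antiPDL1 and 130, 187 and 215 with the combination, against 61.8, 87.9 and 60.5 in controls (adjusted p = 0.17 in limma for the mean of treatments). Among 36 interferon gamma and MHC class I genes tested, Gbp6, an interferon-induced GTPase gene, was the single shared rise, at 1.34 ± 0.26 (SE, adjusted p = 0.00949 in limma), while 10 of the 36 were called higher for the mean of treatments. The share of shared rises in this list was near that of all genes tested. That call of Gbp6 was lost without control replicate 0, and the list gave 3 shared rises without antiPDL1 replicate 1 and 8 without antiPDL1 replicate 2. The gene of PD-L1, Cd274, did not pass, at 19.8 ± 3.98, 46.3 ± 22.5 and 37.4 ± 5.75 FPKM with polyIC, antiPDL1 and the combination, against 19.3 ± 4.2 in controls (adjusted p = 0.112 in limma).

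Epithelial genes were among the falls with the smallest p-values. Sprr1a, whose protein is cross-linked into the cornified envelope of skin and which stressed epithelia switch on, had 0.120, 0.154 and 0.245 FPKM with polyIC, 0.384, 0.629 and 1.16 with antiPDL1 and 0.124, 0.0785 and 0.0341 with the combination, against 6.75, 35.2 and 34.4 in controls. Every treated library was below every control, and control replicate 0 was the lowest control. On the log2(FPKM + 1) scale, which understates changes of genes under 1 FPKM, it fell by 4.06 ± 0.38 (SE, adjusted p = 0.000626 in limma). Krt18 and Krt8, which encode the keratin pair of simple epithelia and hepatocytes, behaved alike. Krt18 had 4.63, 6.54 and 4.70 FPKM with polyIC, 3.09, 3.21 and 6.43 with antiPDL1 and 1.28, 1.94 and 1.35 with the combination, against 17.2, 45.0 and 33.8 in controls. Krt8 averaged 1.94 ± 0.488, 1.74 ± 0.793 and 0.553 ± 0.0287 FPKM, against 11.7 ± 4.55 in controls. Neither overlapped the controls in any treated library.

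Of 35 keratin and epithelial genes 34 were in the table and 18 passed the filter on low values. Of those 18, 7 were shared falls and none a shared rise. For the mean of treatments 10 of the 18 were called lower and 3 higher. Tm4sf4, a membrane protein gene of liver and gut epithelia, averaged 5.04 ± 1.18, 3.69 ± 2.88 and 0.679 ± 0.0461 FPKM with polyIC, antiPDL1 and the combination, against 45.1 ± 23.0 in controls. Tspan8, an epithelial tetraspanin gene, averaged 2.08 ± 0.787, 1.98 ± 2.07 and 0.297 ± 0.028 FPKM, against 23.7 ± 11.8 in controls. Epcam did not pass (log2 difference 0.21, adjusted p = 0.327 in limma). The number of shared falls in this list stayed between 5 and 9 with any 1 library left out. It gave 2 shared rises without antiPDL1 replicate 2 and 1 without control replicate 2.

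A second stretch of promoter is shown for Sprr1a, since the AP-1 element (TGANTCA), where Fos and Jun proteins bind, is known to drive this family of genes. The 160 bases before its start lie at chr3:92485882-92486041 (GRCm38.p6, minus strand), and capitals mark both copies.
Sprr1a: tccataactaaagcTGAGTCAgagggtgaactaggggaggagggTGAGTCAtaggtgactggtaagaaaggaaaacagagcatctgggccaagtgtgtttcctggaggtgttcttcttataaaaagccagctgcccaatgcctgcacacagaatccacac
The AP-1 letters were in 8.17% of windows of shared falls, 5.73% of windows of shared rises, 5.39% of windows of genes tested and 7.81% of all RefSeq windows. In 69 of 32851 windows the CHR and AP-1 matches overlap. Fosb, a gene of an AP-1 protein, was a shared fall of 0.66 ± 0.18 on the log2 scale (SE, adjusted p = 0.0288 in limma). It was the only shared fall among 25 genes of dissociation stress tested, a share near that of all genes, and it was shared in 2 of the 12 fits with 1 library left out (without antiPDL1 replicate 2 or control replicate 1).

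Other genes of the strict set encode growth factors, their binders and secreted proteins. Igfbp1, a liver-secreted binder of insulin-like growth factors, had 6.78, 6.07 and 12.2 FPKM with polyIC, 4.80, 2.56 and 14.4 with antiPDL1 and 1.04, 1.68 and 0.811 with the combination, against 46.6, 119 and 87.6 in controls. The treated libraries stayed below the controls, and the combination was lowest. Igfbp3, which binds the same growth factors, averaged 2.68 ± 1.19, 1.19 ± 0.527 and 0.379 ± 0.264 FPKM, against 13.2 ± 6.10 in controls. Tgfa, a ligand of the EGF receptor, had 0.0809 to 0.570 FPKM over the 9 treated libraries with a median of 0.260, against 1.96, 2.01 and 2.19 FPKM in controls. It fell by 1.25 ± 0.12 (SE), by 1.13, 1.19 and 1.42 in the 3 treated groups.

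Other strict falls were Clu, the chaperone clusterin (by 2.82 ± 0.33), Cpe, the prohormone-processing carboxypeptidase E (by 3.32 ± 0.40), and Akr1c18, a steroid dehydrogenase gene (by 2.77 ± 0.34). Gsta4, a glutathione transferase gene, averaged 3.16 ± 0.490, 3.26 ± 1.33 and 2.13 ± 0.572 FPKM with polyIC, antiPDL1 and the combination, against 17.7 ± 6.67 in controls. Nrn1, which encodes neuritin, averaged 8.12 ± 0.302, 5.63 ± 3.64 and 5.67 ± 2.30 FPKM, against 38.9 ± 7.52 in controls. Cldn2, a tight junction claudin, Itga3, an integrin chain of epithelia, and Tspan12, a tetraspanin, fell by 1.77, 1.61 and 2.27. Further strict falls, Wfdc2, Pam, Maged1, Fam213a, Rab4a, Palmd, Cda and C77080, were of 1.11 to 1.57 on the log2 scale. In 12 of the 29 strict falls fewer than 3 treated libraries reached 1 FPKM.

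Without the combination group 12 falls were still shared by the single treatments, and all were shared falls with it. They included Sprr1a, Krt18, Krt8, Igfbp1, Gsta4, Tgfa, Nrn1, Tspan12 and Pam. With each of the 12 libraries left out in turn, 105 shared falls and 92 shared rises kept their call every time, and all 1012 kept their sign. Only 1 strict call held in every such fit.

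Hepatocyte genes moved with these falls, though not to the same degree in each group. The summed level of 37 hepatocyte secreted protein genes was 3172 to 4394 FPKM with polyIC, 1080 to 3739 with antiPDL1 and 630 to 926 with the combination, against 2595 to 6905 in controls. Every polyIC library lay within the control range. Median log2 differences of this list were -0.13, -1.34 and -2.74 with polyIC, antiPDL1 and the combination, and 5 of its 37 genes tested were shared falls. They included Rbp4, the retinol carrier, which averaged 61.9 ± 12.7, 31.7 ± 25.8 and 6.59 ± 2.72 FPKM, against 141 ± 43.4 in controls, and the antitrypsin gene Serpina1b. Rbp4 was shared in 5 and Serpina1b in 8 of the 12 fits with 1 library left out. Of 33 hepatocyte metabolic genes 1 was a shared fall, a share near that of all genes tested: the nuclear receptor gene Hnf4a. It was not shared without polyIC replicate 0 or 2 or control replicate 0 or 1, and without control replicate 2 the list gave 7 shared falls. Alb was called for the mean of treatments (log2 difference -1.70, adjusted p = 0.0467 in limma) but not shared, and its exact permutation test over 9 against 3 libraries gave p = 0.1 (two-sided). With polyIC, Krt18 fell by 2.3 (adjusted p = 0.00815 in limma), where Alb differed by -0.28 (adjusted p = 0.834). The part of carried-over hepatocyte RNA in the epithelial falls was not tested. The number of secreted protein genes shared was 1 without control replicate 0, control replicate 1 or polyIC replicate 0, 2 without polyIC replicate 2, and 3 without combination replicate 1 or 2.

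Sinusoidal endothelium genes were lower in part. Of 21 tested 11 were called lower for the mean of treatments and none was shared with all 12 libraries, but 16 were shared falls without control replicate 2 and 3 without antiPDL1 replicate 2. Their summed level was 614 to 688 FPKM with polyIC, 580 to 937 with antiPDL1 and 279 to 440 with the combination, against 546 to 2058 in controls. Among stellate cell and fibroblast genes 1 of 9 tested was a shared fall, Ecm1, an extracellular matrix protein gene. It was no longer shared without any 1 of the polyIC libraries, antiPDL1 replicate 0 or 1, or control replicate 0 or 1, and without control replicate 2 the list gave 3 shared falls.

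**Figure D2:**
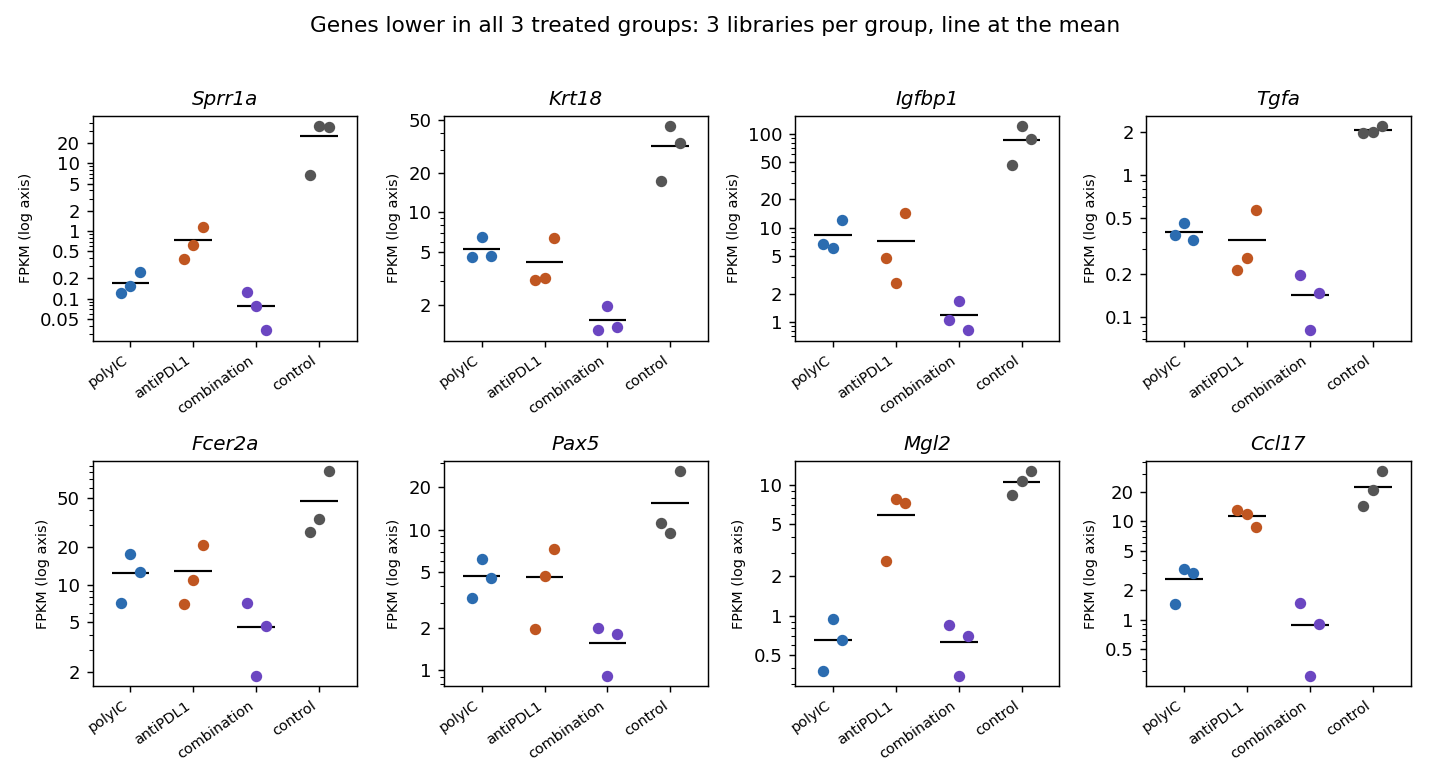
FPKM (log axis) of 8 shared falls in each of the 12 libraries, with points for the 3 libraries of a group and a line at their mean. Treated points lie below all control points in each panel, Sprr1a is near or below 1 FPKM in every treated library, and for Mgl2 and Ccl17 the antiPDL1 libraries lie nearer to control than the other treated groups.

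B cell genes fell as a group. Of 20 tested 12 were shared falls and none a shared rise, at median log2 differences of -0.97, -1.13 and -2.08 with polyIC, antiPDL1 and the combination. Pax5, the factor that fixes B cell identity, had 3.29, 6.18 and 4.51 FPKM with polyIC, 1.96, 4.69 and 7.27 with antiPDL1 and 1.99, 0.918 and 1.81 with the combination, against 11.2, 9.44 and 26.0 in controls. Fcer2a, the low-affinity IgE receptor CD23 of mature B cells, averaged 12.5 ± 5.20, 12.9 ± 7.12 and 4.59 ± 2.65 FPKM, against 47.1 ± 29.6 in controls. Cd79a, a chain of the B cell receptor complex, averaged 55.3 ± 14.4, 54.5 ± 21.7 and 21.7 ± 10.3 FPKM, against 141 ± 82.4 in controls. No treated library overlapped a control for these 3 genes, while control replicate 2 was the highest control in each. Without control replicate 2 the shared falls of the list numbered 3, and without polyIC replicate 0 or antiPDL1 replicate 0 they numbered 6. Plasma cell genes gave 1 shared fall among 7 tested, Sdc1, the surface proteoglycan syndecan-1, at -0.91, which was not shared without polyIC replicate 0, antiPDL1 replicate 1 or control replicate 2.

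Some dendritic cell genes fell beside them. In a list of conventional type 2 dendritic cell and lectin genes 5 of 11 tested were shared falls and none a shared rise. Cd209d, a DC-SIGN-related lectin gene, averaged 5.26 ± 2.62, 11.7 ± 7.02 and 2.50 ± 2.00 FPKM with polyIC, antiPDL1 and the combination, against 47.2 ± 29.4 in controls. Mgl2, a galactose-binding lectin of some dendritic cells and macrophages, had 0.379, 0.943 and 0.647 FPKM with polyIC, 2.64, 7.83 and 7.31 with antiPDL1 and 0.844, 0.348 and 0.694 with the combination, against 8.44, 10.7 and 12.7 in controls. Its fall was much smaller with the antibody alone, and the treated groups differed (limma F test, adjusted p = 0.028), a call lost without any 1 polyIC or combination library or without control replicate 1. Ccl17, a chemokine that attracts CCR4-bearing T cells, had the same order, with 2.58 ± 0.993, 11.2 ± 2.24 and 0.876 ± 0.596 FPKM, against 22.5 ± 9.01 in controls (limma F test, adjusted p = 0.0161), with the call lost without polyIC replicate 2 or combination replicate 1 or 2. Ccl17 was not a shared fall without antiPDL1 replicate 2 or control replicate 2, nor Mgl2 without antiPDL1 replicate 0 or control replicate 2. The list gave 2 shared falls without control replicate 2 or without antiPDL1 replicate 0, and 3 without control replicate 0. Of 15 plasmacytoid dendritic cell genes tested 3 were shared falls, Klk1, Ly6d and Spib. Not all 3 are particular to these cells, and Spib, for one, is a B cell gene too. Klk1 was shared in 12, Spib in 11 and Ly6d in 6 of the 12 fits with 1 library left out. Only 1 was without control replicate 2. The other dendritic cell lists gave no shared fall, and none of 10 type 1 dendritic cell genes tested was shared in either direction. Of 13 genes listed for mature dendritic cells the single shared rise was Tnfrsf4. That gene is also in the regulatory T cell list, so its rise is not particular to dendritic cells. For the mean of treatments 6 of those 13 were called lower and 1 higher, at a median log2 difference of -0.60.

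Kupffer cell genes were low in treated libraries, but few met the shared rule. Of 19 tested 11 were called lower for the mean of treatments and 2 were shared falls, at median log2 differences of -1.59, -0.61 and -3.16 with polyIC, antiPDL1 and the combination. Clec4f, a lectin that only Kupffer cells carry in mouse liver, had 91.6, 493 and 315 FPKM with polyIC, 291, 949 and 1835 with antiPDL1 and 39.5, 5.22 and 25.0 with the combination, against 2920, 3683 and 620 in controls. The libraries antiPDL1 replicates 1 and 2 lay above control replicate 2, so the groups overlapped. Cd163, a haemoglobin scavenger receptor, and Fcna, the lectin ficolin A, were the shared falls, at -3.59 ± 0.73 and -3.10 ± 0.67 (SE). Both calls were lost without control replicate 0 or control replicate 1, and of the 12 fits with 1 library left out Cd163 was shared in 5 and Fcna in 3. The number of Kupffer cell genes shared was 8 without control replicate 2 and 6 without antiPDL1 replicate 2. It was 0 without control replicate 0 or 1, antiPDL1 replicate 0 or 1, polyIC replicate 2 or combination replicate 2, and 1 without any of the others.

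**Figure D3:**
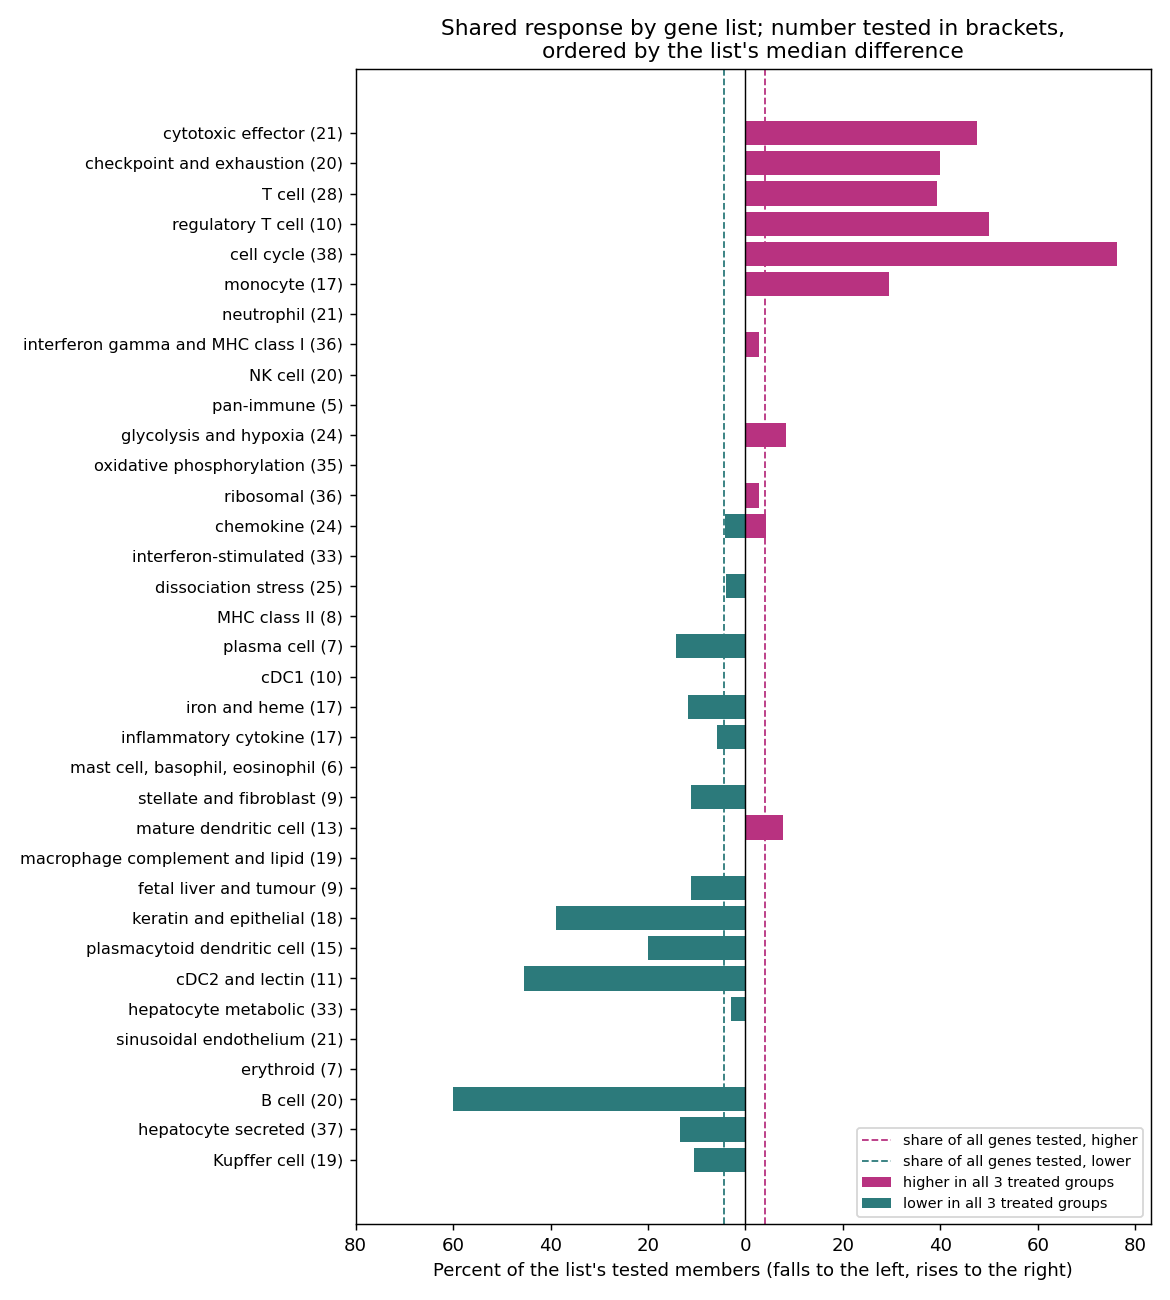
Percent of each gene list's tested members that were shared rises (right) or shared falls (left), with the number tested in brackets and dashed lines at the share of all genes tested (4.02% and 4.42%). Cell cycle genes reach furthest to the right (29 of 38) and B cell genes furthest to the left (12 of 20), while interferon-stimulated, NK cell and neutrophil genes show no bar.

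Some genes moved by nearly the same amount in each group. Mdfic, a regulator of transcription, rose by 0.44, 0.43 and 0.49 on the log2 scale with polyIC, antiPDL1 and the combination. Tgfbr2, a TGF-beta receptor chain, averaged 44.9 ± 2.36, 46.2 ± 9.98 and 44.8 ± 8.54 FPKM, against 63.3 ± 6.66 in controls, and Golga4, a Golgi tether, fell by 0.62, 0.66 and 0.59. The calls of these small changes were fragile: those of Mdfic, Tgfbr2 and Golga4 were all lost without control replicate 0, and all but that of Golga4 without control replicate 1. Of the 12 fits with 1 library left out Tgfbr2 was shared in 2, Mdfic in 6 and Golga4 in 11. Glycolysis genes gave 2 shared rises of 24 tested, Eno1 at 0.96 ± 0.22 and Pfkp at 0.95 ± 0.22. Among 36 ribosomal protein genes 1 was a shared rise, a share near that of all genes tested: Rps23 at 0.89 ± 0.24 (SE for each). Both ribosomal and glycolysis counts turned on single libraries. Eno1 was not shared without control replicate 1, Pfkp without polyIC replicate 0 or 1 or control replicate 0 or 1, and Rps23 without any 1 polyIC or control library. Without antiPDL1 replicate 2 there were 6 shared rises in the ribosomal list and 4 in the glycolysis list, and without control replicate 2 there were 2 in the ribosomal list.

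**Figure D4:**
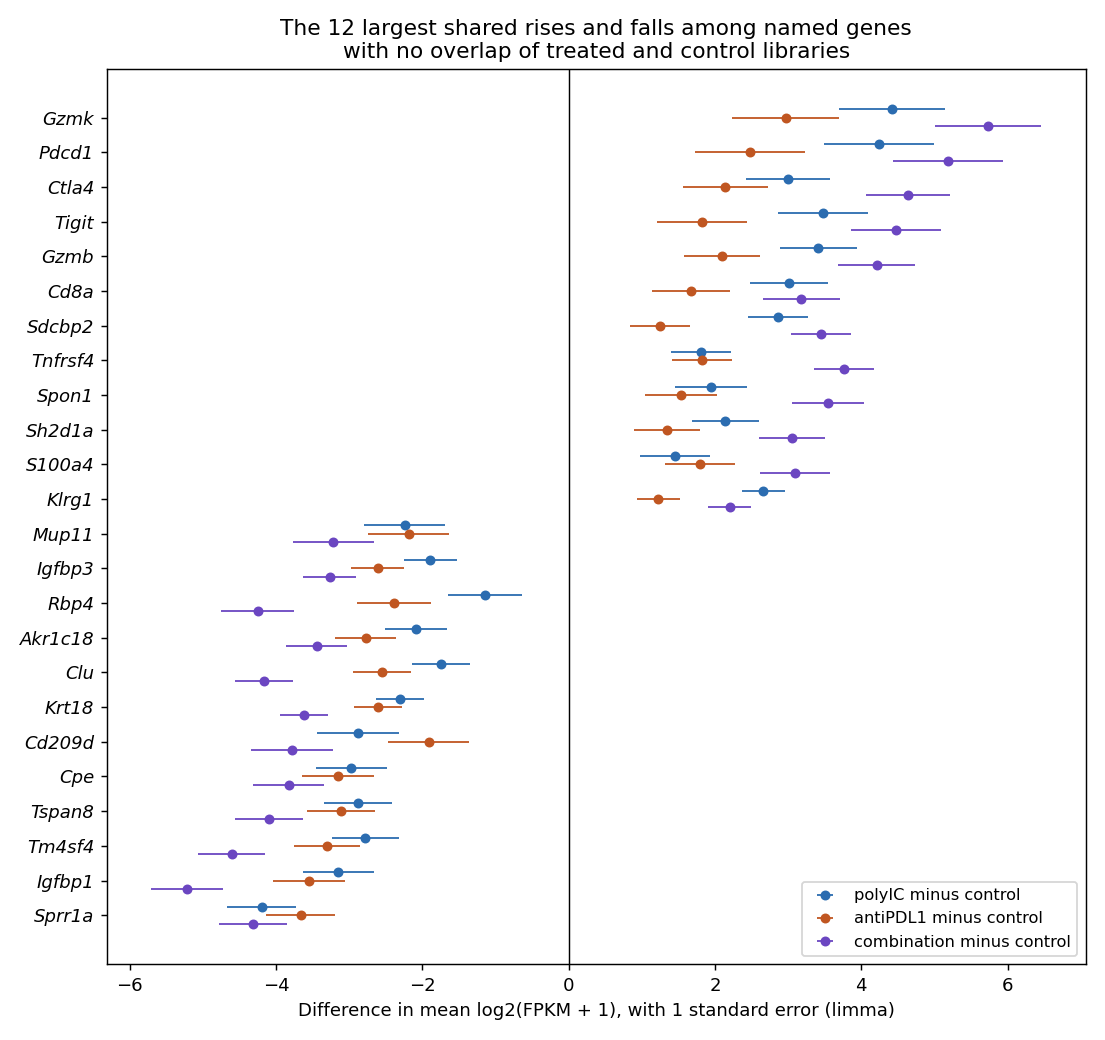
Differences in mean log2(FPKM + 1) between each treated group and control, with 1 standard error from limma, for the 12 largest shared rises and 12 largest shared falls among named genes without overlap of treated and control libraries. The combination is farthest from 0 in all but Klrg1, where polyIC is, and antiPDL1 is nearest to 0 for the rises except Tnfrsf4 and S100a4.

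Since the shared genes were chosen on these differences, their size by group is a description only. Shared rises had median log2 differences of 0.92 with polyIC, 0.77 with antiPDL1 and 1.31 with the combination, and shared falls -0.76, -0.74 and -1.22. The combination was the highest treated group in 453 of 482 shared rises (94.0%) and the lowest in 497 of 530 shared falls (93.8%). Over all genes tested it was the highest in 43.4% and the lowest in 30.2%. Single genes seldom passed the test of a difference among treated groups: 36 genes did (0.301%), of which 4 were shared rises and 4 shared falls. An unadjusted p under 0.05 in that limma F test was met by 131 of 482 shared rises and 171 of 530 shared falls. Of all 11978 genes tested 1907 met it. Beside Ifng, Il21, Mgl2 and Ccl17, the shared genes that passed after adjustment included Gng3 and Serpina1b. Gng3, a G protein subunit gene, averaged 0.910 ± 0.276, 0.610 ± 0.507 and 2.86 ± 0.230 FPKM with polyIC, antiPDL1 and the combination, against 0.0832 ± 0.00288 in controls (limma F test, adjusted p = 0.0431). For Serpina1b the adjusted p was 0.0437 in that test. The number of genes that differed lay between 1 and 21 without any 1 polyIC or combination library or control replicate 1, and between 108 and 609 without any 1 antiPDL1 library or control replicate 2.

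Only 4 genes moved in opposite directions in different treated groups at an unadjusted p under 0.05. Il1rn, the interleukin-1 receptor antagonist, had 15.1, 26.1 and 16.0 FPKM with polyIC, 217, 85.3 and 57.0 with antiPDL1 and 80.3, 49.98 and 67.3 with the combination, against 43.7, 52.7 and 40.2 in controls. The polyIC libraries were all below the controls and the antiPDL1 libraries all above. Itih5, a hyaluronan-binding serum protein gene, averaged 7.31 ± 1.40 and 6.26 ± 0.227 FPKM with polyIC and the combination but 2.01 ± 0.233 with antiPDL1, against 3.28 ± 0.963 in controls. Orm1, an acute-phase protein gene, and Cyp2c70, a bile acid hydroxylase gene, were higher with polyIC (1.15 and 1.05) and lower with the combination (-1.43 and -1.29). The mouse genes of the transfected oncogenes did not pass, with Myc at 12.02 to 26.9 FPKM in treated libraries and 18.0 to 19.8 in controls, and Nras at 32.8 to 45.9 in treated libraries and 32.4 to 57.0 in controls.

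A panel of 19 genes, chosen with earlier results of these data known, was also tested gene by gene. The mean over 9 treated libraries was compared with that over 3 controls by an exact two-sided permutation test. This test has 220 regroupings and cannot give a p under 0.00909. That smallest value was reached by 9 of the 19 genes: Gzmk, Gzmb, Pdcd1, Cd8a, Ifng, Ptprc, Krt8, Krt18 and Sprr1a. In these 9 no treated library overlapped a control. Any gene without overlap gets this p, so it restates the lack of overlap. Gzma and Foxp3 gave p = 0.0182, Clec4f 0.0273 and Cxcl9, an interferon gamma-induced chemokine gene, 0.0364 by the same exact test. The other 6 did not pass: Alb at p = 0.1, Isg15 0.118, Cd274 0.127, Nras 0.345, Cd4 0.455 and Myc 0.882 (exact).

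How many genes met the rule depended on single libraries. The shared rises numbered 107 without control replicate 0, 215 without control replicate 1, 214 without antiPDL1 replicate 0, 309 without polyIC replicate 0 and 992 without antiPDL1 replicate 2. For the shared falls, 156, 264, 273 and 296 were left without control replicate 0, control replicate 1, antiPDL1 replicate 0 and polyIC replicate 0, 337 without polyIC replicate 2 and 1381 without control replicate 2. With antiPDL1 replicate 2 and control replicate 2 both out, 1239 rises and 1583 falls were shared. Leaving out the whole combination group left 2 rises and 12 falls.

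**Figure D5:**
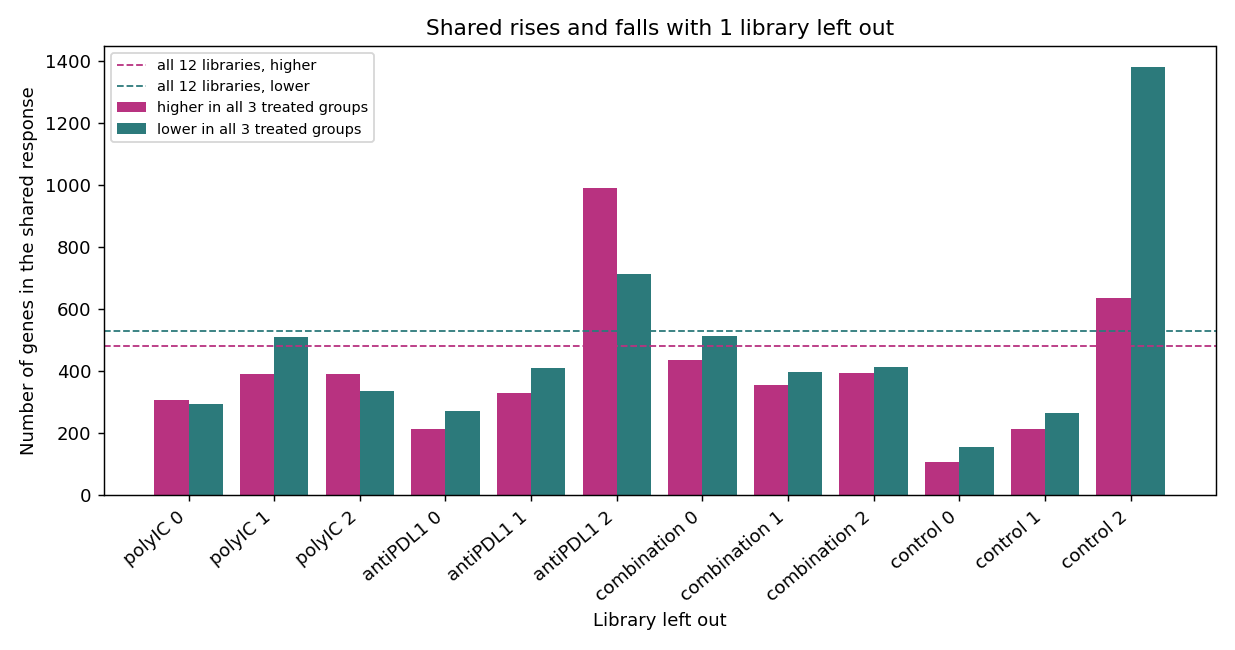
Number of shared rises and shared falls when 1 library is left out, with dashed lines at the counts from all 12 libraries (482 and 530). Counts are lowest without control replicate 0, rises are highest without antiPDL1 replicate 2 and falls are highest without control replicate 2.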

How the data were processed

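RNA-seq of liver CD45+ cells was used as 1 table of 12 libraries, with 24319 entries. The values are treated as FPKM made by the authors with Cuffdiff on mm9, per the submitters' processing notes. The deposited table does not name its unit, which was read from the values, and the Cuffdiff version is not given in the sources used here. Absolute depth is unknown, so no counting intervals are given. Relative depth came from the steps between low values of 1902 genes, over 57 of 66 library pairs.

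Columns were tied to samples by their names. Entries listed at 0 in a whole group but at 5 FPKM or more in every library of another were left out as possible failed estimates (22, Actb, Apoe and Cd74 among them), as were genes without 1 FPKM in 3 libraries. On log2(FPKM + 1), limma 3.58.1 (R 4.3.3) fitted 4 group means to all 12 libraries with a mean-dependent prior variance. P-values were adjusted by Benjamini-Hochberg over all 11978 genes. Single genes were also compared by exact permutation (scipy 1.17.1). The fit was tested on simulated data.

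Named genes were the 12 largest rises and 12 largest falls among shared calls without overlap, every strict call, up to 3 shared members of each gene list, the 4 most even and most uneven changes and a panel of 19 genes. Predicted genes and small RNA genes were not named. A few genes that met this rule are not reported here. The gene set and the lists were chosen with earlier results of these data known, so no p-value is given for a list. Alternatives were another pseudocount, filter or scaling, a fit of 2 groups, a replicate block, library weights, each group or library left out, and the left-out entries kept.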

Additional observations from a re-analysis of the deposited data

Results flagged for a closer look

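Among the genes named, 7 differed between the 3 treated groups by the limma F test, which compares only those groups but uses controls in its estimate of the spread. Il21, Ccl17, Mgl2 and Gng3 were named for their low p in this test, and Itih5 for opposite moves. The 7 are therefore no measure of how often named genes differ. Over all genes tested 36 differed (0.301%). The adjusted p was 0.0138 for Il21, 0.0161 for Ccl17, 0.0161 for Itih5, 0.028 for Mgl2, 0.0431 for Gng3, 0.0437 for Serpina1b and 0.0446 for Ifng. With 1 library left out, Il21, Ccl17 and Itih5 kept this call in 9 of 12 fits, all 3 losing it without polyIC replicate 2 or combination replicate 1 or 2. Mgl2, Gng3, Serpina1b and Ifng kept it in 5, losing it without any 1 polyIC or combination library or control replicate 1. Il21, Ifng and Gng3 were highest with the combination, and Serpina1b was lowest there. Mgl2 and Ccl17 were higher with antiPDL1 than with polyIC or the combination, and Itih5 was lower with antiPDL1.

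In 8 of the 100 genes named, a single library stood apart from the other treated libraries by Dixon's criterion. Chance meets it in about 1 of 20 sets of normally distributed values. The criterion was applied to FPKM without a log, so that share may not hold here and 8 of 100 cannot be judged against it. The 9 treated libraries were pooled over 3 groups, so a difference between groups can also meet it. The library was antiPDL1 replicate 2 for 6 of them: Cd163 at 113 FPKM, Fcna at 1054, Fam213a at 10.7, Tslp at 2.08, Fosb at 1.09 and Cldn2 at 1.04. It was antiPDL1 replicate 0 for Il1rn at 217 FPKM and antiPDL1 replicate 1 for Zfp580 at 1.43. The cause was not tested.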

How the results depend on the processing

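Of the 91 named genes that were called, none changed direction under any alternative, 62 kept their call with each library left out and 11 under all alternatives. Calls for any treatment numbered 1045 with a mean of at least 5 FPKM, 771 in a fit of 2 groups, 15, 1311 and 3522 without the combination, polyIC and antiPDL1 groups, 5539 with library weights and 4865 without control replicate 2 and antiPDL1 replicate 2, against 2238. Shared rises numbered 2 without the combination, 1344 without antiPDL1, 1315 with weights and 1239 without both libraries. Shared falls numbered 1106 with no filter, 191 with a mean of at least 5, 12 without the combination, 1152 without antiPDL1, 1504 with weights and 1583 without both libraries. Strict calls numbered 19 with a pseudocount of 0.1, 110 with no filter, 5 with a mean of at least 5, 1 without the combination, 1 without polyIC, 814 without antiPDL1, 1520 with weights and 1734 without both libraries. Genes differing among treated groups numbered 7 with a mean of at least 5, 3373 with weights and 1328 without both libraries. The causes were not tested.

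With 1 library left out, calls for any treatment ran from 332 (control replicate 0) to 4058 (antiPDL1 replicate 2), shared rises from 107 to 992 and shared falls from 156 (both lowest without control replicate 0) to 1381 (control replicate 2). Strict calls ran from 1 (antiPDL1 replicate 0 or 1, or control replicate 1) to 515 (antiPDL1 replicate 2), and genes differing among treated groups from 1 (combination replicate 2) to 609 (control replicate 2).

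Uncalled genes changed sign: without the combination, Cd4 had -0.040, Cyp2c70 0.15, Il1rn -0.044 and Orm1 0.26. Il1rn had -0.37 without antiPDL1, and -0.041 to 0.28 with 1 library left out. Myc had -0.019 with quantile scaling, -0.0016 with median-of-ratios scaling and -0.047 to 0.14 with 1 library left out, and Nras 0.052 without both libraries. With 1 library left out Nras had -0.36 (control replicate 0) to 0.035 (control replicate 2), and Orm1 -0.72 (control replicate 2) to 0.034 (control replicate 0).

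Replicate numbers did not pair the samples: deviations of same-numbered libraries correlated at -0.294 to 0.321, with 4 of 18 pairs over 0.1. A replicate block gave 2146 calls for any treatment, 525 shared rises, 522 shared falls, 24 strict calls and 25 genes differing among treated groups.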

Other observations

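Neutrophil genes were not shared with all 12 libraries (3 were shared rises without antiPDL1 replicate 0, and 1 without antiPDL1 replicate 2 or control replicate 2), with 8 of 21 tested called higher for the mean of treatments and median log2 differences of 1.18, 0.36 and 0.82 with polyIC, antiPDL1 and the combination. Oxidative phosphorylation genes gave no shared call among 35 tested, but 6 shared rises without antiPDL1 replicate 2. Tslp, a cytokine gene of epithelia, was the single shared fall among 17 inflammatory cytokine genes tested, a share near that of all genes. It was shared in 4 of the 12 fits with 1 library left out, and the list gave 2 shared falls without control replicate 2. With quantile scaling 1296 genes were higher and 1062 lower with treatment, against 1008 and 1230 without it.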
